A study of Homo sapiens with 6 samples.

Results

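The genes described here encode the chondroitin sulfate matrix of the brain. They are the lecticans VCAN, BCAN, NCAN and ACAN, the link proteins HAPLN1 and HAPLN3, the membrane proteoglycans CSPG4, CSPG5 and PTPRZ1, and the glycoprotein TNR. They were listed by symbol, with no value in the rule, but they were chosen with earlier results of these data known. All 10 were found among the 28395 genes of the deposited count table. U251 is an established human glioblastoma line. Bulk RNA-sequencing of polyadenylated RNA covered 3 WT libraries and 3 NUAK2-CR libraries, the latter from U251 cells transduced with Cas9 and a guide against NUAK2, a serine/threonine kinase. The labels name no agent, passage or control vector for WT, and they do not say whether the 3 libraries of a group came from separate cultures, so p-values measure the spread between these libraries, which may be technical. Per the study's methods, NUAK2-CR lines were grown from single sorted cells, and the labels name no clone, so a feature of one clone and an effect of NUAK2 loss cannot be told apart.

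Lecticans are large secreted proteoglycans that carry chondroitin sulfate chains. Their N-terminal end binds hyaluronan, link proteins lock that bond, and their C-terminal lectin-like end binds tenascins and fibulins, so that together they form the loose, hyaluronan-rich matrix of brain tissue. Versican (VCAN) is widespread in developing tissue and in tumors, whereas brevican (BCAN) and neurocan (NCAN) are largely restricted to the nervous system and aggrecan (ACAN) is known from cartilage and perineuronal nets. CSPG4, CSPG5 and PTPRZ1 are membrane proteins that carry such chains themselves, and they are known from glial precursor cells and from gliomas.

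In NUAK2-CR cells, VCAN, CSPG4, HAPLN3 and CSPG5 rose and BCAN and PTPRZ1 fell, while NCAN, ACAN, HAPLN1 and TNR were barely detected in either group. VCAN was 2.46-fold and CSPG4 3.00-fold higher in NUAK2-CR, whereas BCAN was 2.85-fold and PTPRZ1 4.51-fold lower. By edgeR's quasi-likelihood test over 14873 genes, at a Benjamini-Hochberg adjusted p-value under 0.05, 4 of the 10 genes were higher and 2 lower. Among all genes tested, 26.3% were higher and 28.2% lower, so a call in this comparison is common. The WT and NUAK2-CR values of all 6 tested genes did not overlap, which held for 61.3% of the genes tested. When the log2 fold change also had to exceed 2 in size, the study's definition of a DEG, 1 gene (PTPRZ1) was lower, against 2.83% of the genes tested, and 0 were higher, against 1.89%. The count of higher DEGs was also 0 with DESeq2 and 0 at an unadjusted p under 0.05 with the same fold threshold. That threshold alone fixed this count, because the largest increase among the 6 tested genes, that of CSPG4, was 1.585 (1.595 with DESeq2). The 6 tested genes had at least 89 counts in every library, so none entered the test through only one group.

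The 6 libraries held 29648445 to 55574081 counts on genes, the most in WT replicate 1. The targeted gene NUAK2 averaged 1654 ± 243 normalized counts across WT libraries and 869.5 ± 83.2 across NUAK2-CR libraries (SD, n = 3 each), with a log2 fold change of -0.93 ± 0.11 (SE), so its transcript was reduced but present. The 100 tested genes around NUAK2 had a median of -0.44, and less that median NUAK2 was at -0.49. The glial identity of the line was checked on 8 glial and glioma markers. VIM, GFAP, NES, CD44 and SOX2 were abundant in WT, AQP4 was at no more than 3 counts in every library, and 6 of the 8 were lower in NUAK2-CR. Of the oligodendrocyte precursor markers, OLIG1, OLIG2, SOX10 and LHFPL3 were at no more than 3 counts in every library, although this lineage is known for CSPG4 and PTPRZ1. PDGFRA had 668 to 814 counts in the WT libraries, and GPR17 had 0 to 2 there and 3 to 12 in NUAK2-CR. In such bulk libraries, fewer cells of a type and less RNA per cell cannot be told apart.

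The windows shown here are the 250 bases before a RefSeq start of the 2 genes with the largest increase and the 2 that fell. They are shown because these genes moved in opposite directions within one family. The CSPG4 window lies inside the span of that gene, which reaches 75713466, so it precedes a start within the gene. Sequences run 5′ to 3′ on the gene's strand in GRCh38.p14, and capitals mark the SP1 box GGGCGG or its reverse complement CCGCCC.
CSPG4, chr15:75712849-75713098, - strand: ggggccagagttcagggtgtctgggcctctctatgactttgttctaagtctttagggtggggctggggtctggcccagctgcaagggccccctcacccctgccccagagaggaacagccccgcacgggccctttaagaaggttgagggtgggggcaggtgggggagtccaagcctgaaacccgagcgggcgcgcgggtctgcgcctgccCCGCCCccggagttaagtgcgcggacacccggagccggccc
VCAN, chr5:83471494-83471743, + strand: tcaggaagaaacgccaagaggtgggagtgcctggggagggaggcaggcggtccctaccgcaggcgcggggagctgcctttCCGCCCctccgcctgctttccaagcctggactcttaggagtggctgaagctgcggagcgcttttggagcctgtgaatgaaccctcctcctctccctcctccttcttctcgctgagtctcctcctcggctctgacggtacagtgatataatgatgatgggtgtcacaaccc
BCAN, chr1:156641867-156642116, + strand: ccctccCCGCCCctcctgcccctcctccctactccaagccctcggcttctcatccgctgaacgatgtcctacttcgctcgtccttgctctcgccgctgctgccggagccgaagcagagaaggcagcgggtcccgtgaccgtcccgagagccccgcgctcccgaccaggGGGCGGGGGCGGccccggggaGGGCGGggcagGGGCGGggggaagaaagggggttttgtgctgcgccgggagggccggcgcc
PTPRZ1, chr7:121872911-121873160, + strand: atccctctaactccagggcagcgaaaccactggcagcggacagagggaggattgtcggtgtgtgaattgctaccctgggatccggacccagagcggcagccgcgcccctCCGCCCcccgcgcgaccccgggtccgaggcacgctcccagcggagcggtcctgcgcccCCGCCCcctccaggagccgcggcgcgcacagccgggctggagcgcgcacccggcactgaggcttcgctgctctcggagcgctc

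The windows shown for CSPG4 and VCAN each held 1 SP1 box, compared with 5 for BCAN and 2 for PTPRZ1. Of the other genes that rose, HAPLN3 had 0, and CSPG5, with 2 RefSeq starts, had 0 and 3, so the counts of genes that rose and fell overlapped. The GC content was 68.4% for CSPG4, 60.8% for VCAN, 60.4% for HAPLN3 and 50% and 79.6% for CSPG5, and 74.0% for BCAN and 73.2% for PTPRZ1, against a median of 58.0% over 35116 RefSeq windows. An SP1 box on either strand was present in 42.6% of these windows. The other motifs searched on both strands were the TATA box TATAAA, the CCAAT box, the AP-1 letters TGANTCA, the TEAD letters GGAATG and the E-box CANNTG, which were present in 10.7%, 32.0%, 6.57%, 11.9% and 61.8% of the windows. Of these, the 4 windows shown held only E-boxes, 2 in that of CSPG4, and the absence of the other letters says nothing about the factors themselves. NCAN and TNR had no window. A few windows give a description and no test.

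VCAN was the most abundant of these genes. It lies on chromosome 5 of GRCh38 from 83471744 to 83582302 (gene 1462). Its normalized counts, meaning counts brought to a common effective library size, were 5489, 7982 and 6835 in WT replicates 1, 2 and 3. In NUAK2-CR replicates 1, 2 and 3 they were 18436, 16744 and 14769. The lowest NUAK2-CR library was nearly double the highest WT library, and WT replicate 1 was the lowest of all. Its WT mean was 6769 ± 1248 and its NUAK2-CR mean 16649.5 ± 1836 (SD, n = 3 each), or 1.30 ± 0.12 (SE) as a log2 ratio of NUAK2-CR to WT (edgeR adjusted p of 2.21e-06). The antisense gene VCAN-AS1 overlaps it, and its 0 to 11 counts per library were too few to shift this value. Splice forms of VCAN, which differ in how many chondroitin sulfate chains they carry, cannot be separated in counts per gene.

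BCAN (gene 63827, chromosome 1, 156642117 to 156659528) moved the other way. Its normalized counts were 358, 359 and 287 in WT and 123, 107 and 122 in NUAK2-CR replicates 1, 2 and 3. All 3 NUAK2-CR libraries were well under the lowest WT library. Its WT mean was 334.6 ± 41.2 and its NUAK2-CR mean 117.5 ± 8.79 (SD, n = 3 each), or -1.51 ± 0.16 (SE) as a log2 ratio of NUAK2-CR to WT (edgeR adjusted p of 5.51e-06). The other brain lecticans were near 0. For NCAN, the WT libraries had 2, 2 and 0 counts and the NUAK2-CR libraries 1, 0 and 0. For ACAN, the WT libraries had 8, 1 and 0 counts and each NUAK2-CR library 0. At these depths 3 counts, the limit that a count of 0 allows, correspond to between 0.0540 and 0.101 CPM. This limit covers counting error only. A difference in NCAN was not detectable, with a ratio of summed counts in WT to NUAK2-CR of 2.91 (95% exact interval 0.288 to 143). The 9 counts of ACAN in WT against 0 in NUAK2-CR were at least 2.18-fold apart when 3 counts were allowed over the NUAK2-CR group, with an exact lower bound of 1.44, but 8 of them came from WT replicate 1.

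Levels of different genes were compared per kilobase of the canonical transcript. On that scale VCAN made up 80.3%, 85.5% and 86.4% of the summed level of the 4 lecticans in WT replicates 1, 2 and 3. The share was 97.6%, 97.7% and 97.0% in NUAK2-CR replicates 1, 2 and 3. BCAN made up nearly all of the rest, on average 15.9% ± 3.26 across WT and 2.59% ± 0.353 across NUAK2-CR libraries (SD, n = 3 each). The ratio of VCAN to BCAN per kilobase was thus 4.10, 5.94 and 6.36 in the WT libraries and 39.98, 41.7 and 32.4 in the NUAK2-CR libraries. No library of one group came near the other. WT replicate 1, which had the lowest VCAN level, also had the lowest ratio. In raw counts, where the longer VCAN transcript weighs more, BCAN took 6.12% (95% Wilson interval 5.64 to 6.64), 4.30% (3.89 to 4.75) and 4.03% (3.58 to 4.53) of lectican counts in WT replicates 1, 2 and 3. In NUAK2-CR it took 0.664% (0.544 to 0.809), 0.637% (0.518 to 0.783) and 0.818% (0.680 to 0.985), and no interval of one group overlapped one of the other. These intervals cover counting error only. These shares describe a score over the family and were given no test.

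**Figure D1:**
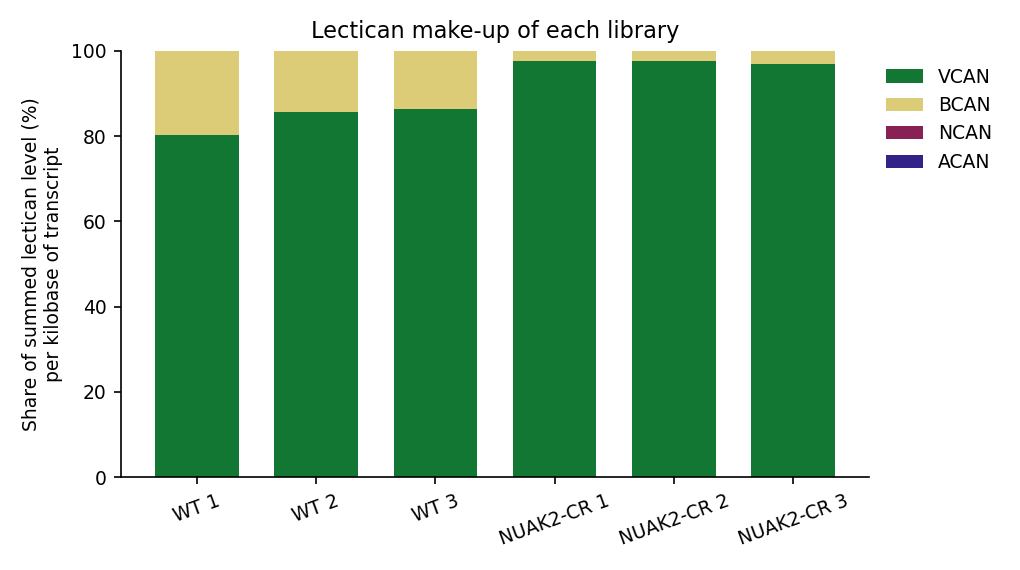
Bars show, for each library, the share in percent of the summed lectican level per kilobase of transcript taken by VCAN, BCAN, NCAN and ACAN. VCAN takes 80.3% to 86.4% in WT and 97.0% to 97.7% in NUAK2-CR, BCAN nearly all of the rest, and NCAN and ACAN are too low to be seen.

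Link proteins hold lecticans on hyaluronan, and each lectican gene lies beside a link protein gene in the genome. The gap between the genes was 55.5 kb for VCAN and HAPLN1 on chromosome 5, 1.94 kb for ACAN and HAPLN3 on chromosome 15, 16.4 kb for BCAN and HAPLN2 on chromosome 1 and 2.52 kb for NCAN and HAPLN4 on chromosome 19. In the first of these pairs VCAN was abundant, while for HAPLN1 the WT libraries had 1, 2 and 0 counts and the NUAK2-CR libraries 0, 0 and 5. In the second pair, ACAN was barely detected and HAPLN3 was expressed. HAPLN2 had 0 to 8 and HAPLN4 2 to 10 counts per library. HAPLN3 (gene 145864, chromosome 15, 88877294 to 88895544), a widely expressed link protein gene, was thus the only one of the 4 to pass the count filter. Its normalized counts were 162, 184 and 156 in WT and 255, 281 and 261 in NUAK2-CR. Every NUAK2-CR library was above every WT library. Its WT mean was 167 ± 14.9 and its NUAK2-CR mean 266 ± 13.5 (SD, n = 3 each), or 0.67 ± 0.15 (SE) as a log2 ratio of NUAK2-CR to WT (edgeR adjusted p of 0.00202).

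Of the membrane proteoglycans, CSPG4 (gene 1464, chromosome 15, 75674322 to 75713466), also called NG2, which binds collagen VI and growth factors and marks glial precursors and pericytes, had the largest increase in the family. Its normalized counts were 337, 234 and 370 in WT and 872, 1053 and 900 in NUAK2-CR. The lowest NUAK2-CR library was more than double the highest WT library. Its WT mean was 314 ± 70.6 and its NUAK2-CR mean 942 ± 97.2 (SD, n = 3 each), or 1.59 ± 0.15 (SE) as a log2 ratio of NUAK2-CR to WT (edgeR adjusted p of 2.38e-06). The genome holds pseudogene copies of CSPG4, so reads that also map to a copy are a limit of its count. The 5 pericyte and smooth muscle markers rose in sum, from between 1394 and 1453 normalized counts per library in WT to between 4306 and 4489 in NUAK2-CR. The rise was carried by ACTA2, with means of 93.0 in WT and 2138 in NUAK2-CR, and PDGFRB, with 861 and 1763. Of these 5, ACTA2, NOTCH3 and PDGFRB were higher and KCNJ8 (log2 fold change -1.34) and RGS5 (-0.96) lower. The part of these markers in the CSPG4 result was not tested.

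CSPG5 (gene 10675, chromosome 3, 47562238 to 47580240), or neuroglycan C, an EGF-domain proteoglycan of neurons and glial precursors, had the smallest change. Its normalized counts were 137, 127 and 120 in WT and 189, 198 and 153 in NUAK2-CR, where the third library lay closest to WT. Its WT mean was 128 ± 8.25 and its NUAK2-CR mean 179.9 ± 24.0 (SD, n = 3 each), or 0.48 ± 0.18 (SE) as a log2 ratio of NUAK2-CR to WT (edgeR adjusted p of 0.0343). The call was lost without WT replicate 2 (log2 fold change 0.48, adjusted p = 0.072) or 3 (0.44, 0.0932), without NUAK2-CR replicate 1 (0.46, 0.0788) or 2 (0.41, 0.112), and at the depth of the smallest library (0.41, 0.0965). Over all alternatives its adjusted p lay between 0.0218 and 0.112.

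PTPRZ1 (gene 5803, chromosome 7, 121873161 to 122062036) encodes a receptor-type tyrosine phosphatase whose extracellular part, also released as phosphacan, binds pleiotrophin, tenascins and contactin-1. Its normalized counts were 355, 749 and 618 in WT and 133, 141 and 108 in NUAK2-CR. WT replicate 1 lay far below the other two WT libraries and still more than double the highest NUAK2-CR library. Its WT mean was 574 ± 200.3 and its NUAK2-CR mean 127 ± 17.5 (SD, n = 3 each), or -2.17 ± 0.24 (SE) as a log2 ratio of NUAK2-CR to WT (edgeR adjusted p of 1.01e-05), which was the largest decrease in the family. Without WT replicate 2 it was -1.93 and no longer met the fold threshold of a DEG, and without WT replicate 1 it was -2.42. TNR, the tenascin of mature oligodendrocytes and neurons, had 0 counts in all 6 libraries, which allows up to 3 counts in each.

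**Figure D2:**
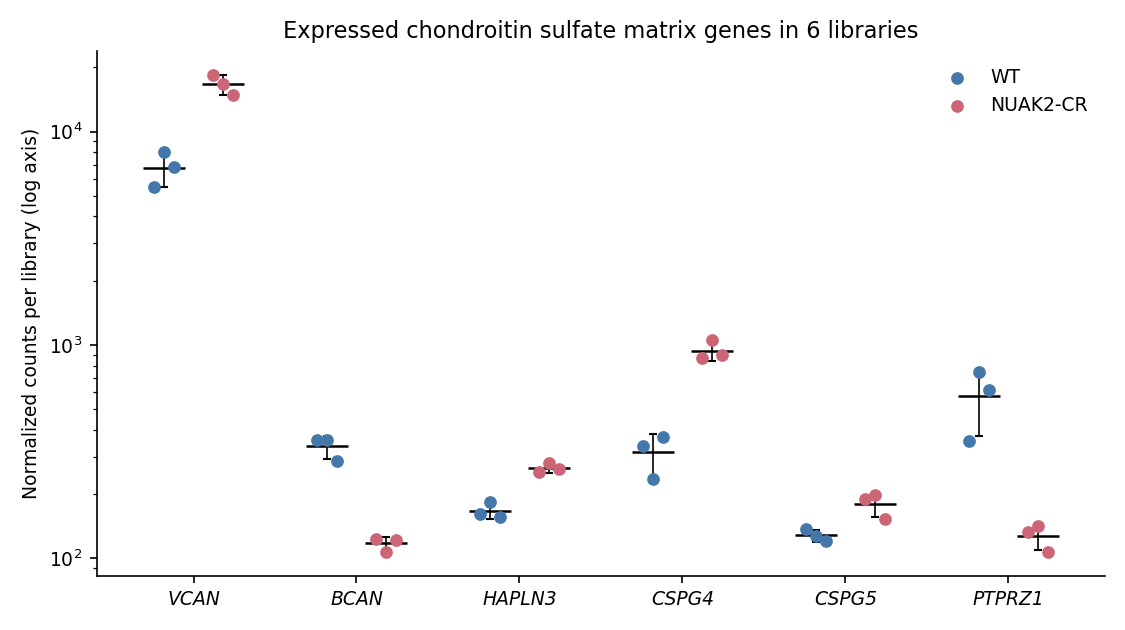
Points are normalized counts per library on a log axis for the 6 genes tested, blue for WT and red for NUAK2-CR, with the mean as a horizontal line and the SD as a bar (n = 3). VCAN, HAPLN3, CSPG4 and CSPG5 are higher in every NUAK2-CR library than in any WT library, and BCAN and PTPRZ1 are lower.

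The order of the genes by level per kilobase differed between the groups. In WT, VCAN had 548 normalized counts per kb, followed by BCAN with 101.5, HAPLN3 with 88.5, PTPRZ1 with 70.8, CSPG5 with 59.5 and CSPG4 with 37.8. The WT libraries of BCAN and HAPLN3 overlapped, as did those of HAPLN3 and PTPRZ1 and those of PTPRZ1 and CSPG5. PTPRZ1, at 43.85 to 92.38 per kb, also overlapped BCAN (87.05 to 108.8) and CSPG4 (28.28 to 44.6). Thus only VCAN stood clear of all the others in WT. In NUAK2-CR, VCAN had 1349 normalized counts per kb, followed by HAPLN3 with 140.5, CSPG4 with 114, CSPG5 with 83.5, BCAN with 35.6 and PTPRZ1 with 15.7. No neighbours in that order overlapped. BCAN went from the second place to the fifth and CSPG4 from the last to the third. Some of these places depend on the length used. With all exons joined, a length chosen after seeing the data, HAPLN3 had 3489 bases instead of 1892 and CSPG5 4367 instead of 2154. By group means on that length, CSPG5 lay below CSPG4 and HAPLN3 below PTPRZ1 in WT. In NUAK2-CR, CSPG4 then lay above HAPLN3, while BCAN kept its place in both groups.

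Against all genes tested, the log2 fold change of CSPG4 lay at percentile 96.8 and that of VCAN at 95.2. HAPLN3 lay at percentile 86.6 and CSPG5 at 81.0. BCAN lay at percentile 4.1 and PTPRZ1 at 2.5. The median over all genes tested was -0.01, and the middle 50% of them lay between -0.39 and 0.35 on the log2 scale. The tested gene whose profile over the 6 libraries was closest to that of VCAN was SCD, followed by AKAP12, MMP16, PCDHB16 and CHSY3. Their distances in centred log2 CPM were 0.188 to 0.211, against a median of 1.75 over all genes, and each mainly reflects a like difference between the groups.

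**Figure D3:**
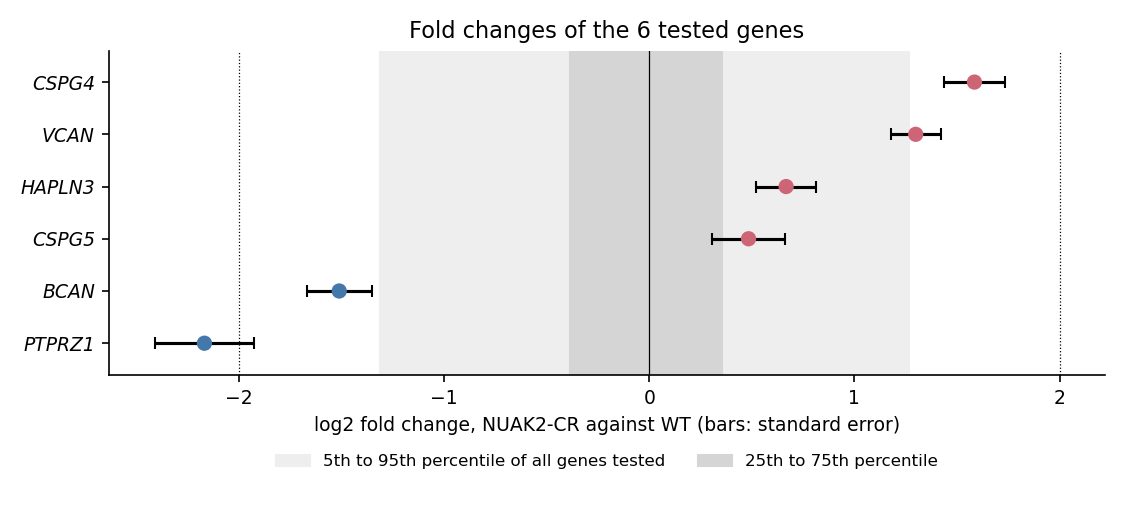
Points are log2 fold changes of the 6 tested genes in NUAK2-CR against WT, with standard errors as bars, red above 0 and blue below. Grey bands give the 5th to 95th percentile (-1.31 to 1.27) and the 25th to 75th percentile (-0.39 to 0.35) of all genes tested, and dotted lines the fold threshold of 2. CSPG4, VCAN, BCAN and PTPRZ1 lie outside the wider band.

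Each gene was also set beside its neighbours on the chromosome. BCAN lies in a part of chromosome 1 where the 50 nearest tested genes on each side had a median log2 fold change of -0.48, and less that median it was -1.03. Such a median was not particular to that part, with -0.50 around TNR and -0.44 around NUAK2, also on chromosome 1. Next to BCAN, the tested gene NES, which encodes the intermediate filament protein nestin, had -1.56, and GPATCH4 on the other side had -0.42. For VCAN the neighbours had a median of -0.21, so its value less that median was larger, 1.51, and the nearest tested genes XRCC4 and EDIL3 had -0.86 and -0.31. The regional medians were -0.09 for CSPG4, -0.14 for HAPLN3, 0.10 for CSPG5 and 0.12 for PTPRZ1. The nearest tested genes to CSPG4 were SNX33 (0.35) and DNM1P35 (0.52), and those to PTPRZ1 were FAM3C (0.22) and AASS (-0.25). ISG20 (1.19) and MFGE8 (0.23) flanked HAPLN3, and ELP6 (-0.01) and SMARCC1 (0.41) flanked CSPG5. No gene changed sign against its region.

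**Figure D4:**
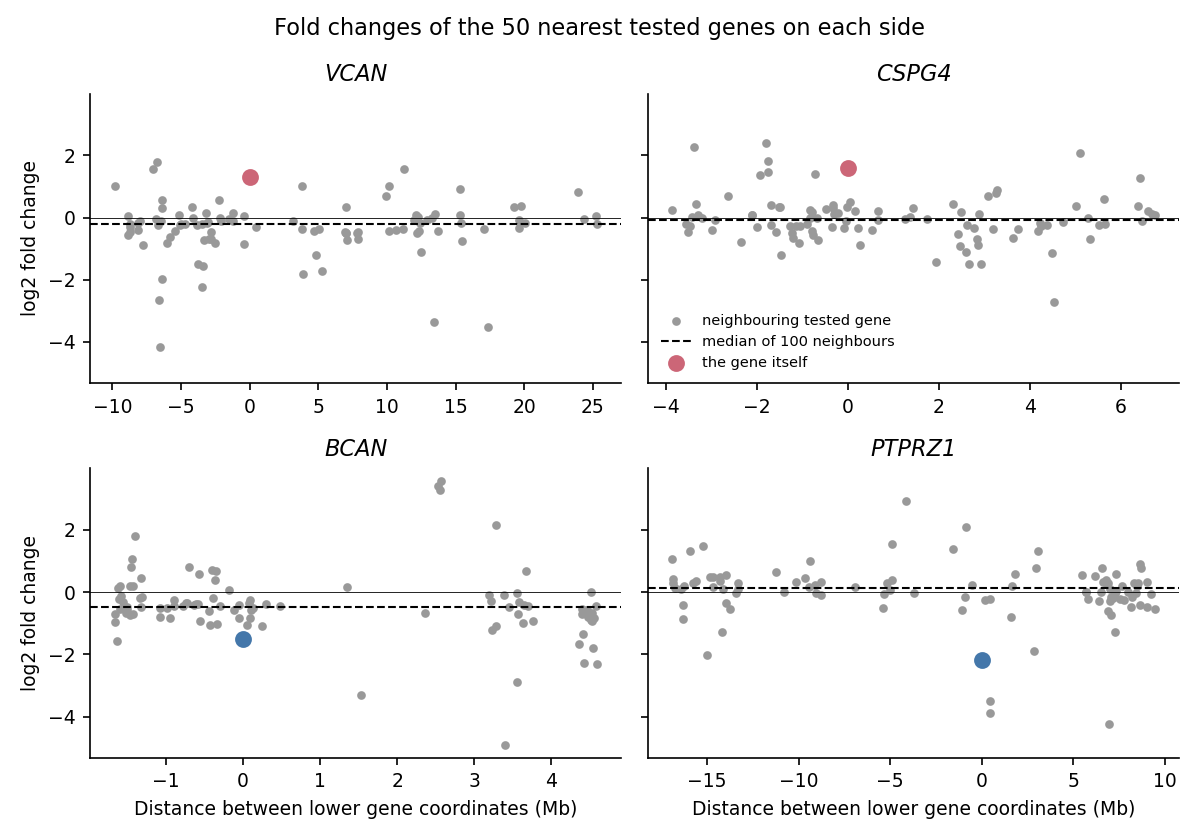
Grey points are the 50 nearest tested genes on each side of VCAN, CSPG4, BCAN and PTPRZ1, by distance between the genes' lower coordinates in Mb and log2 fold change in NUAK2-CR against WT. The dashed line is the median of the neighbours (-0.21, -0.09, -0.48 and 0.12) and the coloured point the gene itself (1.30, 1.59, -1.51 and -2.17).

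The function of these proteins depends on their chains and partners, and 63 genes in 6 lists were examined for this. These lists too were chosen with earlier results of these data known, so counts in them are description. Of the 63, 53 passed the count filter, and 24 of these were higher and 17 lower in NUAK2-CR at an adjusted p-value under 0.05, against 26.3% and 28.2% of all genes tested. The median log2 fold change of the 53 was 0.21, against -0.01 over all genes tested. Of the called genes, PTPRD passed the filter through WT alone and ADAMTS5 and ADAMTS20 through NUAK2-CR alone, so the filter itself favoured a difference in these. The low-count gene HYAL1 also passed through NUAK2-CR alone and was not called (edgeR adjusted p of 0.796). Beside the 50 nearest tested genes on each side, 39 of the 41 called genes kept their sign when the regional median was subtracted, and PTPRF and ARSB did not. Among the 39, XYLT2, B3GALT6, FAM20B and UXS1 kept it only at -0.06, -0.008, -0.007 and 0.007. How often called genes in general keep their sign was not computed.

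Among the 14 tested genes of chain synthesis, 8 were higher and 3 lower, with a median log2 fold change of 0.30. CHPF, a chondroitin polymerizing factor, averaged 3737 ± 166 normalized counts across WT and 7295 ± 292 (SD, n = 3 each) in NUAK2-CR, 0.97 ± 0.07 (SE) higher on the log2 scale. The chondroitin synthase CHSY1 rose by 0.40 on the same scale. FAM20B, the xylose kinase that acts on the linker of every such chain, fell by 0.49, and the tested genes around it on chromosome 1 had a median of -0.48. The largest changes in this list, named after their values were seen, were in CSGALNACT1, which adds the first N-acetylgalactosamine and rose by 1.58, and in the chondroitin synthase CHSY3, which rose by 1.45. XYLT2, also named after its value was seen, which starts the chain by adding xylose, fell by 0.49, and its paralog XYLT1 was too low to be tested. Likewise B3GALT6, which adds a galactose of the linker, fell by 0.36. The median of the tested genes around them was -0.42 for XYLT2 and -0.35 for B3GALT6. Less these medians, XYLT2 was at -0.06, B3GALT6 at -0.008 and FAM20B at -0.007.

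Of the 10 tested genes of chain sulfation and epimerization, 4 were higher and 3 lower, and their median log2 fold change was 0.25. CHST3, a 6-O-sulfotransferase with 9693 ± 555 (SD, n = 3) normalized counts in WT, fell by 0.22 on the log2 scale. PAPSS1, which makes the sulfate donor, rose by 0.47, and the dermatan 4-O-sulfotransferase CHST14 by 0.27. Larger changes, again named after their values were seen, were in PAPSS2, the second donor-making enzyme, which rose by 1.94, and in CHST7 and CHST11, a 6-O- and a 4-O-sulfotransferase, which fell by 1.40 and 1.02. Both donor-making enzymes rose, while the sulfotransferases included increases and decreases.

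Of the 5 tested binding partners, 1 was higher and 3 lower. CD44, the main hyaluronan receptor, averaged 121879 ± 16230 normalized counts across WT and 41757 ± 1024 across NUAK2-CR (SD, n = 3 each), or -1.55 ± 0.09 (SE) as a log2 ratio of NUAK2-CR to WT (edgeR adjusted p of 3.81e-08). The tested genes around CD44 had a median of -0.42, and less that median it was at -1.12. TNC, the tenascin that binds lecticans and PTPRZ1, fell by 0.29. FBLN1, a fibulin that binds the C-terminal end of lecticans, fell by 2.59, and the hyaluronan synthase HAS2 rose by 3.03. Thus 2 of the 5 met the DEG thresholds, in opposite directions, while 1.89% of all genes tested were higher DEGs and 2.83% lower ones. FBLN1 and HAS2 were already among the matrix DEGs that the study picked from these libraries, so their count is description only. In the study's qPCR the difference in HAS2 was not significant.

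Among the 11 ligands and receptors, 4 were higher and 5 lower. CNTN1, a neural adhesion molecule bound by PTPRZ1, had the largest decrease in the 6 lists. Its normalized counts were 2674, 2311 and 2662 in WT and 85.1, 83.2 and 71.4 in NUAK2-CR. Each NUAK2-CR library was far below every WT library, and its log2 ratio of NUAK2-CR to WT was -5.00 ± 0.11 (SE), with an edgeR adjusted p of 1.54e-11. The 100 tested genes around CNTN1 had a median of 0.19, and of the nearest ones LRRK2 had -3.29 and GXYLT1 0.16. PTN and MDK, the growth factors that bind PTPRZ1, named after their values were seen, did not pass edgeR's test, with values of 0.30 ± 0.13 (SE, adjusted p = 0.0781) and 0.21 ± 0.10 (SE, adjusted p = 0.0837) on the log2 scale. Of the receptors for chondroitin sulfate, PTPRS rose by 0.66 and PTPRF, a phosphatase of the same family, fell by 0.20, which was less than the fall in the median of its region (-0.45). The third member, PTPRD, had 34, 15 and 17 counts in the WT libraries but 0, 2 and 1 in the others, a ratio of 16.0 in summed counts (95% exact interval 5.25 to 79.6, counting error only). L1CAM, another neural adhesion molecule, rose by 0.84. The other called genes of this list, named after their values were seen, went both ways. RTN4R rose by 0.79 and RTN4RL1 by 1.71, while NCAM1 fell by 0.79 and NRCAM by 0.54.

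Of the 6 tested proteases that cut lecticans, 4 were higher and 2 lower, and of the 4, ADAMTS5 and ADAMTS20 passed the count filter only through NUAK2-CR, where they were high. ADAMTS15, the most abundant of them, averaged 1945 ± 39.8 normalized counts across WT and 421 ± 44.5 across NUAK2-CR (SD, n = 3 each), or -2.21 ± 0.09 (SE) as a log2 ratio of NUAK2-CR to WT (edgeR adjusted p of 2.15e-09). ADAMTS4, known for cutting brevican and aggrecan, averaged 456 ± 27.98 across WT and 132.5 ± 25.4 across NUAK2-CR (SD, n = 3 each), or -1.79 ± 0.16 (SE) as a log2 ratio. It is itself among the 100 tested genes around BCAN. The tested genes around ADAMTS4 had a median of -0.57, and less that median it was at -1.22. ADAMTS1, which cuts versican, rose by 0.56. ADAMTS20, with 6, 4 and 0 counts in the WT libraries but 25, 24 and 19 in the others, rose by 3.21. Of the 7 tested genes of chain breakdown in lysosomes, 3 were higher and 1 lower. The hexosaminidase subunit HEXA rose by 0.43 and the glucuronidase GUSB by 0.64, while the sulfatase ARSB fell by 0.21, beside a regional median of -0.30.

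**Figure D5:**
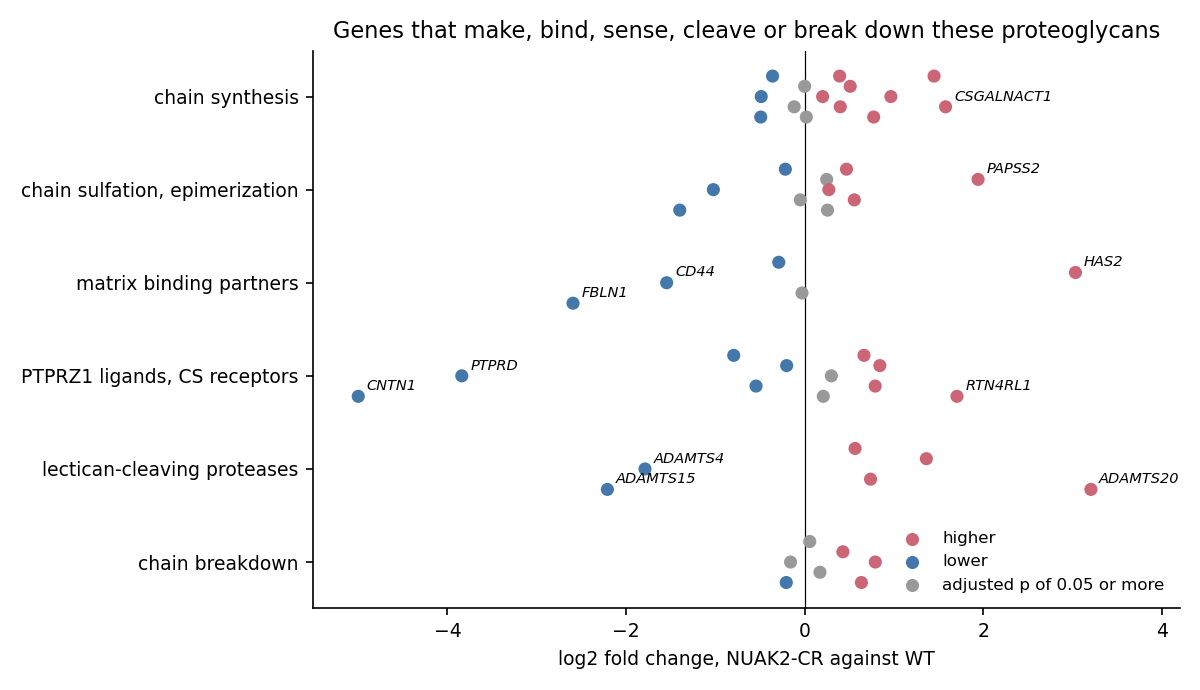
Each point is 1 of the 53 tested genes, placed by its log2 fold change in NUAK2-CR against WT within its list, red where higher and blue where lower at an adjusted p-value under 0.05, and grey otherwise. Genes beyond 1.5 in either direction are named, from CNTN1 at -5.00 to ADAMTS20 at 3.21.

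Summed markers of other cell types were set beside these results. Of the 8 glial and glioma markers, 6 fell, as did BCAN and PTPRZ1, ALDH1L1 did not pass the test (log2 fold change 0.91) and AQP4 was too low to be tested. The list, carried by CD44, VIM and GFAP, summed to between 321700 and 355700 normalized counts per library in WT and between 135900 and 142100 in NUAK2-CR. The 6 oligodendrocyte precursor markers summed to between 488 and 785 in WT and between 100.1 and 160.3 in NUAK2-CR, most of it PDGFRA, which had a log2 fold change of -2.54. The 7 chondrocyte markers summed to between 9980 and 11540 in WT and between 9430 and 10660 in NUAK2-CR, nearly all of it SOX9, with 2 markers higher and COL9A1 at 0 in all libraries. Of the 6 neuronal markers 2 were higher, SNAP25 (log2 fold change 3.56) and STMN2 (5.27), and 1 lower, TUBB3 (-0.49). STMN2 had 2, 5 and 0 counts in WT replicates 1, 2 and 3, so it too passed the count filter through NUAK2-CR alone. The list, most of it TUBB3, summed to between 15000 and 18000 in WT and between 12080 and 12840 in NUAK2-CR. The leukocyte markers PTPRC, AIF1 and CD3E were at no more than 3 counts in every library, and the list, at 644 to 733 in WT and 201 to 244 in NUAK2-CR, was nearly all CD68. Endothelial markers summed to between 17.2 and 31.2 in WT and between 84.4 and 90.2 in NUAK2-CR, with VWF and PECAM1 of the 3 higher. PECAM1 had 2, 0 and 0 counts in WT replicates 1, 2 and 3, so it passed the count filter through NUAK2-CR alone. Epithelial markers summed to between 15.4 and 24.7 in WT and between 12.1 and 22.9 in NUAK2-CR. The part of these markers in the results above was not tested.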

How the data were processed

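Groups and replicate numbers come from the sample titles. The authors' methods for these stranded mRNA libraries were trimming by Trimmomatic, alignment by HISAT2 to hg38 and counting by featureCounts with default settings, and the authors deposited raw counts per gene. The annotation and strand setting are not given in the sources used here, so overlapping genes are uncertain. Reads that map to several places are a further limit for genes with copies.

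Of 28395 gene identifiers, 27745 were matched to RefSeq symbols (GRCh38.p14). Counts were analysed in R 4.3.3 with edgeR 4.0.16 (filterByExpr, TMM, glmQLFit, quasi-likelihood F test, prior count 0.125, Benjamini-Hochberg over 14873 genes), and standard errors were taken from the F statistic. DESeq2 1.42.0 was an alternative. Transcript lengths were from the canonical transcripts of GENCODE, and ratios of low counts had exact 95% intervals. Shares per library rest on the counts of 1 library, and their precision is limited by these counts. The pipeline was tested on simulated data. Tables and figures used Python 3.11.15, pandas 2.3.3 and matplotlib 3.10.9.

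Named genes were the 10 members, the DEGs of each partner list and the 3 most abundant called genes of each, and the 5 profiles closest to the most abundant member, and others are marked in the text as named after their values were seen or as nearest neighbours, low counts or markers. Members and lists were chosen with earlier results of these data known. Alternatives were other scalings, filters and prior counts, a replicate block, thinning, regional medians and each library left out.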

Additional observations from a re-analysis of the deposited data

How the results depend on the processing

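VCAN, BCAN, CSPG4, HAPLN3 and PTPRZ1 kept their direction and their side of the adjusted p threshold in all 14 alternatives with a test, and CSPG5 in 9 of them. Leaving out 1 library gave log2 fold changes of 1.17 to 1.43 for VCAN, -1.61 to -1.45 for BCAN, 0.62 to 0.74 for HAPLN3, 1.42 to 1.71 for CSPG4, 0.41 to 0.59 for CSPG5 and -2.42 to -1.93 for PTPRZ1. CSPG5 lost its call in 4 of these 6 fits, which have fewer libraries, and in libraries thinned to the smallest total (0.41). The number of lower DEGs in the family was 0 to 1 when 1 library was left out, and an absolute log2 fold change over 1 gave 2 higher and 2 lower. Less the regional median, VCAN was at 1.51 and BCAN at -1.03. The share of VCAN among lecticans, 84.1% in WT and 97.4% in NUAK2-CR per kilobase, was 95.1% and 99.3% in raw counts, which favour the longer transcript, and 86.5% and 97.9% with all exons joined, a length chosen after seeing the data. Less their regional medians, a comparison also added after seeing the data, PTPRF and ARSB turned from -0.20 and -0.21 to 0.25 and 0.10. Over all genes, DEGs fell from 702 to 339 when at least 10 counts were required in every library. Genes under 10 counts, among them NCAN, ACAN, HAPLN1 and TNR, are limited by depth.

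Replicate numbers are shared by the groups, but same-numbered libraries did not deviate together (r across genes 0.043, -0.035 and 0.048), not every library correlated best with its own number, and nothing else ties them. With a replicate block, 4 members were higher and 2 lower, and PTPRZ1 had a log2 fold change of -2.12. The calls over all genes moved from 8107 to 8167.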
